A study of Rattus norvegicus with 9 samples.

Results

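The genes described here encode intermediate filament proteins: Krt7, Krt8, Krt18 and Krt19, keratins typical of simple epithelia, and also vimentin (Vim) and lamin A/C (Lmna). They were chosen by symbol, and all 6 members were found once each among the 32883 genes of the count table. All 6 also passed the filter on low counts that left 15517 genes for the test. The libraries came from the vestibular epithelium, the balance organ of the inner ear, of male Long-Evans rats, and each library held the 6 cristae and 2 utricles of 1 rat, dissected and pooled. The IDPN-3wk and IDPN-7wk groups drank water with 20 mM 3,3'-iminodipropionitrile (IDPN), a nitrile that is toxic to vestibular hair cells (HCs), for 3 or 7 weeks, and control rats drank plain water. There were 3 rats per group. Per the methods of the study, the single control group held animals euthanized at each of the time points, and it served both comparisons with control. The age of these rats is not given in the sources used here. Per the methods of the study, rats were euthanized on the last day of treatment. Between the treated groups, length of exposure and any difference in age at sampling therefore cannot be told apart. The comparisons ask whether the filament genes of the epithelium changed while HCs were under this chronic stress.

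Intermediate filaments are rope-like polymers that give cells mechanical strength. Keratins form them only as pairs of a type II and a type I protein. Krt8 (type II) with Krt18 (type I) is the basic pair of simple epithelia, to which Krt7 (type II) and Krt19 (type I) are added in many lining and duct cells. In the vestibular epithelium, keratins are known from supporting cells and from the non-sensory cells around them, while HCs hold little or none. Vimentin, a type III filament protein, is found in supporting cells of the inner ear as well as in mesenchyme, endothelium, macrophages and Schwann cells. Lamins A and C, the 2 main products of Lmna, line the inside of the nuclear envelope in most differentiated cells. Levels are given below as counts per 1000000 counts of a library (CPM) after TMM normalization, and they are compared between rats, not between genes, because transcript lengths were not used here.

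The libraries held 31100118 to 46018385 counts, so that 3 counts corresponded to 0.0611 to 0.101 CPM. Reads carried no molecular identifiers, and such floors cover counting error only. No pair of replicates was a duplicate of one library, as the lowest chi-square per gene between them was 18.7. At equal depth, 15387 to 15498 genes were detected in control replicate 3 and IDPN-3wk replicates 1 and 2, and 16834 to 17312 genes in the other 6 libraries, which include all 3 IDPN-7wk libraries. Values within each of these sets of libraries are given where they bear on a result. IDPN-7wk replicate 1 also stood apart. It had the highest Krt7, Krt8, Krt18, Krt19 and Lmna of the 9 libraries, and values without it are given beside the results. In the sample titles, the first part of the animal identifier is the same for IDPN-7wk replicate 1 and IDPN-3wk replicate 1, another for all 3 control rats, and others for the remaining rats of each treated group. What it marks is not given in the sources used here, and for the controls it cannot be told apart from the treatment. The same holds for replicates 2 and 3 of each treated group, as only the pair of treated replicates 1 spans groups. All HC and supporting cell markers looked for were detected, so the labelled tissue has both of its defining cell types. In bulk tissue, a change in the number of cells of a type and a change in the RNA per cell cannot be told apart.

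After 7 weeks of IDPN, Krt7, Krt8 and Krt19 were 22.3-fold, 2.19-fold and 2.15-fold higher than in control rats, Krt18 and Lmna were 1.49-fold and 1.41-fold higher, which is under the fold threshold, and Vim did not pass the test. After 3 weeks only Krt19 passed. Genes were called differentially expressed (DEGs) when the fold change exceeded 1.5 and the adjusted p was below 0.05 in the quasi-likelihood test of edgeR, fitted to all genes with Benjamini-Hochberg adjustment. At 3 weeks, 1 of the 6 members was a DEG (Krt19), and 4 were higher in every IDPN-3wk rat than in every control rat (Krt8, Krt18, Krt19 and Lmna). Of all genes tested, 0.438% were DEGs with a higher level at 3 weeks, and 8.78% had groups that did not overlap in that direction. At 7 weeks, 3 members were DEGs (Krt7, Krt8 and Krt19), and 5 were higher in every IDPN-7wk rat than in every control rat, with Vim as the exception. The background was 2.00% of all genes for higher DEGs and 17.2% for groups that did not overlap. Between IDPN-7wk and IDPN-3wk rats no member was a DEG by edgeR, although 2 had an unadjusted p under 0.05 and DESeq2 called 1 (Krt7). In that comparison the higher DEGs made up 0.348% of all genes, and the groups did not overlap for 2 members (Krt7 and Krt19), against 12.1% of all genes. The median log2 fold change of the 6 members was 0.51, 0.84 and 0.28 in these 3 comparisons, where the median of all genes tested was -0.00047, 0.0097 and 0.0082.

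**Figure D1:**
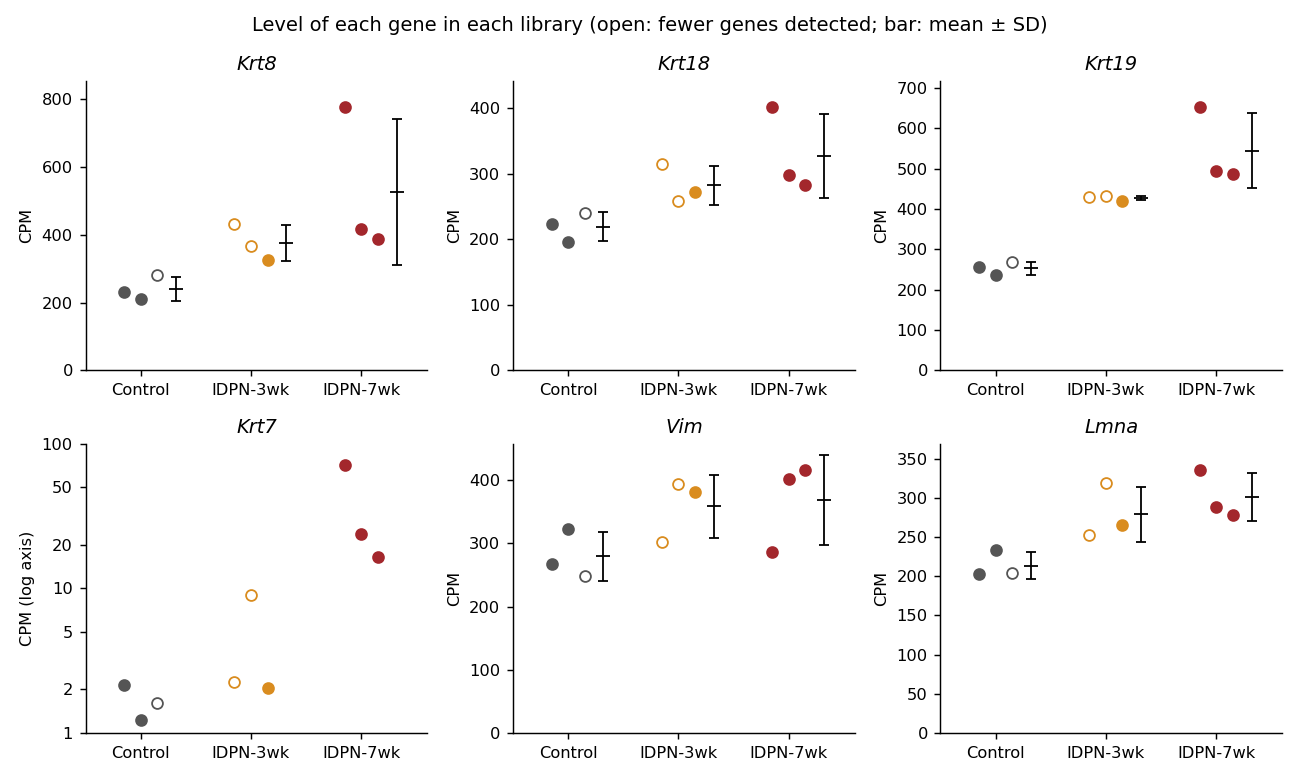
CPM of each gene in each library (y axis, from 0, except for Krt7, which is on a log axis) by group (x axis). Each point is 1 rat, open points mark the 3 libraries with fewer detected genes, and bars give mean ± SD (n = 3). The 3 IDPN-3wk rats lie close together for Krt19 at 420.5 to 432 CPM, above all controls, and IDPN-7wk replicate 1 is the highest point in every panel but that of Vim.

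Krt8 and Krt18 are the obligate partners of the basic keratin pair of simple epithelia. Krt8 (ENSRNOG00000009779) had levels of 232, 210.4 and 280.0 CPM in control replicates 1 to 3, of 431, 367 and 326 CPM in the IDPN-3wk rats and of 777, 416 and 388 CPM in the IDPN-7wk rats. Every treated rat was above every control rat, while the groups of treated rats overlapped, and replicate 1 stood far above the other IDPN-7wk rats. From the control mean of 241 ± 35.7 CPM (SD, n = 3), Krt8 rose to 527 ± 217 CPM at 7 weeks (log2 fold change 1.13, SE 0.245, edgeR adjusted p = 0.0231). At 3 weeks the mean was 375 ± 53.0 CPM (log2 fold change 0.64, SE 0.243), which did not pass (edgeR adjusted p = 0.236). The 7-week call did not hold without control replicate 1 (edgeR adjusted p = 0.0891) or 2 (edgeR adjusted p = 0.0959). Without IDPN-7wk replicate 1 the log2 fold change was 0.74 and the call held (edgeR adjusted p = 0.0304). Within the 6 libraries with more detected genes, the difference of mean log2 CPM at 7 weeks was 1.18, between 3 treated and 2 control rats, and a fit of those libraries alone gave an edgeR adjusted p of 0.0696.

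Krt18 (ENSRNOG00000047393) followed the order of Krt8 with smaller steps. Its levels were 223, 195 and 239.6 CPM in control rats, 315, 259 and 272 CPM in IDPN-3wk rats and 401, 298 and 283 CPM in IDPN-7wk rats. All 6 treated rats were above all 3 controls. The rise at 7 weeks, from 219 ± 22.5 to 327 ± 64.6 CPM (SD, n = 3), had a log2 fold change of 0.58 (SE 0.144), which is a fold of 1.49, just under the threshold (edgeR adjusted p = 0.0440). At 3 weeks the log2 fold change was 0.36 (SE 0.144, edgeR adjusted p = 0.256). The adjusted p for Krt18 at 7 weeks was not under 0.05 without any 1 of the 3 control rats (edgeR adjusted p = 0.122, 0.152 and 0.0680), without IDPN-3wk replicate 3 (0.0608), without IDPN-7wk replicate 1 (0.135) or 2 (0.0696), or with a covariate for the libraries with fewer detected genes (0.0518). With that covariate 3 members passed by adjusted p at 7 weeks, in place of 5. Krt18 became a DEG without IDPN-7wk replicate 3 (log2 fold change 0.67, edgeR adjusted p = 0.0493) and in the fit of the 6 libraries with more detected genes (fold 1.56, edgeR adjusted p = 0.0340).

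Over the 9 libraries, Krt18 was the gene whose log2 CPM was most like that of Krt8 among 9822 genes with a mean of at least 10 CPM (Pearson r = 0.98), and Krt8 was the gene most like Krt18. The libraries share their depth and group differences, so this is a description. Next in order for both was Tuba1c, an alpha-tubulin (r = 0.98 with Krt8 and 0.96 with Krt18), followed by Prdx1, a peroxiredoxin, for Krt8 (r = 0.96) and Arpc1a, a subunit of the actin-nucleating Arp2/3 complex, for Krt18 (r = 0.95). In the RefSeq annotation (assembly GRCr8, not the Rnor6.0 build of the counts) the genes of the pair lie on the same chromosome with 1 annotated gene between them. Because they are neighbours with the most similar levels, their upstream sequences are shown, from RefSeq on GRCr8, for bases 250 to 76 before the listed start of each gene, 5′ to 3′ on the strand of the gene. Capitals mark matches to the motifs searched on both strands. Krt8 lies on the minus strand at chr7:135010415-135010589 and Krt18 on the plus strand at chr7:135035918-135036092.
Krt8: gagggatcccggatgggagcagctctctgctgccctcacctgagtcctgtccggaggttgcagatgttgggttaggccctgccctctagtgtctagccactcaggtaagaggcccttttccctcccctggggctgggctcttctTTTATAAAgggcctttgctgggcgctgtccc
Krt18: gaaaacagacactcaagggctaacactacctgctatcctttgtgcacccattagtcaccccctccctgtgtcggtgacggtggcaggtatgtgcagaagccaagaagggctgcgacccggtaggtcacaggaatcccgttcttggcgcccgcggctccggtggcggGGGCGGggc
The listed start of Krt8 looks like its start codon and not a transcription start, so the bases nearer to it were left out for all genes, and the distances below are from the listed starts only. The Krt8 window held the TATA box letters TATAAA 104 bases before the listed start, overlapping a match on the other strand at 106. The Krt18 window held the GC box letters GGGCGG 84 bases before its start. Of 33469 rat promoter windows of the same length, 8.79% held TATAAA and 20.1% held GGGCGG. Neither window held CCAAT (25.2% of windows) or the AP-1 motif TGANTCA (4.54% of windows). RefSeq windows were found for 4 of the 6 members, and those of Vim and Lmna are not shown.

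Krt19, the smallest type I keratin, with almost no tail domain, was the only member called at both times. Krt19 (ENSRNOG00000014233) measured 255, 235 and 267 CPM in control rats, 429, 432 and 420.5 CPM in IDPN-3wk rats and 652, 494 and 487 CPM in IDPN-7wk rats. The 3 groups lay in the order of exposure and none of them overlapped. From 253 ± 16.4 CPM in controls (SD, n = 3), it was 427 ± 5.82 CPM at 3 weeks (log2 fold change 0.76, SE 0.116, edgeR adjusted p = 0.0122). At 7 weeks it was 544 ± 93.2 CPM (log2 fold change 1.11, SE 0.116, edgeR adjusted p = 0.00059). The further step from 3 to 7 weeks, a log2 fold change of 0.35 with a 95% interval of 0.094 to 0.61, did not pass (edgeR adjusted p = 0.220). The 7-week call held in every one of the 19 alternative settings, with a highest adjusted p of 0.00471 by edgeR. At 3 weeks the call was lost without control replicate 1 (edgeR adjusted p = 0.0617) or 2 (edgeR adjusted p = 0.0637). The difference of mean log2 CPM at 3 weeks was 0.69 within the libraries with fewer detected genes and 0.78 within the others. A fit of those 6 libraries alone, with 1 IDPN-3wk library, did not call it (edgeR adjusted p = 0.0892). The genes most like Krt19 were Prcc (r = 0.98), Sft2d2 (r = 0.98) and Parp3 (r = 0.97).

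Krt7, a type II keratin of ducts and other simple epithelia, had the largest fold change among the members and the widest spread. Counts of Krt7 (ENSRNOG00000008057) were 80, 39 and 57 in control rats, 83, 267 and 67 in IDPN-3wk rats and 3519, 1151 and 650 in IDPN-7wk rats. In CPM these were 2.16, 1.22 and 1.60 in controls, 2.26, 8.99 and 2.06 at 3 weeks and 71.7, 23.7 and 16.5 at 7 weeks. The 3-week rats overlapped the controls, with only replicate 2 well above them, while all IDPN-7wk rats were above all others. Between 7 weeks and control the log2 fold change was 4.48 (SE 0.745, edgeR adjusted p = 0.00677), a fold of 22.3 with a 95% interval of 7.08 to 70.6. Without IDPN-7wk replicate 1 the fold was 12.0 and the gene was still a DEG (edgeR adjusted p = 0.0212). The 3-week log2 fold change of 1.41 (SE 0.684), a fold of 2.65, did not pass (edgeR adjusted p = 0.358). The log2 fold change was 0.38 without IDPN-3wk replicate 2 and 0.28 in the fit of the 6 libraries with more detected genes. The difference of mean log2 CPM at 3 weeks was 1.49 within the libraries with fewer detected genes and 0.34 within the others. Between the treated groups the log2 fold change was 3.08 (SE 0.692), a fold of 8.43 (95% interval 2.90 to 24.5), and edgeR did not call it (adjusted p = 0.0980) while DESeq2 did (adjusted p = 9.96e-05). That comparison also depended on single rats, since Krt7 was called without IDPN-3wk replicate 2 (fold 17.2, edgeR adjusted p = 0.0451) and had a fold of 4.53 without IDPN-7wk replicate 1 (edgeR adjusted p = 0.373). The genes most like Krt7 were Cmtr1, an mRNA cap methyltransferase (r = 0.99), Hspb1, a small heat shock protein (r = 0.99), and Ube2l6, a conjugating enzyme for the ubiquitin-like protein ISG15 (r = 0.98).

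Vim, the type III filament gene shared by supporting cells and many non-epithelial cells, did not pass the test in any comparison. The levels of Vim (ENSRNOG00000018087) were 268, 323 and 248 CPM in control rats, 302, 393 and 381 CPM in IDPN-3wk rats and 287, 402 and 416 CPM in IDPN-7wk rats. Each treated group overlapped the controls through its replicate 1. The log2 fold change was 0.36 at 3 weeks (SE 0.163, edgeR adjusted p = 0.322) and 0.40 at 7 weeks (SE 0.163, edgeR adjusted p = 0.213). The 95% interval at 7 weeks ran from a fold of 1.02 to a fold of 1.69. Between the treated groups it was 0.04 (95% interval -0.32 to 0.40, edgeR adjusted p = 0.953). In the rat with the highest keratins, IDPN-7wk replicate 1, Vim was the lowest of its group, and without this rat the log2 fold change at 7 weeks was 0.55 (edgeR adjusted p = 0.0847). Vim was also lowest of its group in IDPN-3wk replicate 1, the rat whose identifier shares its first part. With a covariate for this pair, an alternative chosen after seeing the data, the log2 fold change of Vim was 0.50 (edgeR adjusted p = 0.0869) after 3 weeks and 0.52 after 7 weeks, where its adjusted p was under 0.05 (edgeR adjusted p = 0.0313) and its fold of 1.44 stayed under the threshold. The genes most like Vim were Tex30 (r = 0.95), Gtf3c4 (r = 0.92) and Rbm25l1 (r = 0.91). Its correlation with Krt8 over the 9 libraries was 0.14.

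Lmna, which sets the stiffness of the nucleus together with the B-type lamins, showed a small rise. Lmna (ENSRNOG00000019638) was at 203, 234 and 204 CPM in control rats, 253, 319 and 265 CPM in IDPN-3wk rats and 336, 289 and 279 CPM in IDPN-7wk rats. Every treated rat was above every control, and the treated groups overlapped. The mean went from 214 ± 17.5 CPM in controls to 279 ± 35.0 CPM at 3 weeks and 301 ± 30.3 CPM at 7 weeks (SD, n = 3). The log2 fold change was 0.50 at 7 weeks (SE 0.116, edgeR adjusted p = 0.0329), a fold of 1.41 and so under the DEG threshold, and 0.39 at 3 weeks (SE 0.116, edgeR adjusted p = 0.137). By adjusted p alone, 5 members passed at 7 weeks, against 2.48% of all genes in that direction, and 1 member at 3 weeks, against 0.548%. For Lmna at 7 weeks this was lost without control replicate 1 (edgeR adjusted p = 0.126) or 3 (0.104), and without IDPN-7wk replicate 1 (0.128), 2 (0.0738) or 3 (0.0621), and with a covariate for the libraries with fewer detected genes (0.0587) or for the rats that share an identifier part (0.0743). Unc45a, a myosin chaperone (r = 0.98), Mta3 (r = 0.97) and Serhl2 (r = 0.97) had the levels most like it.

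**Figure D2:**
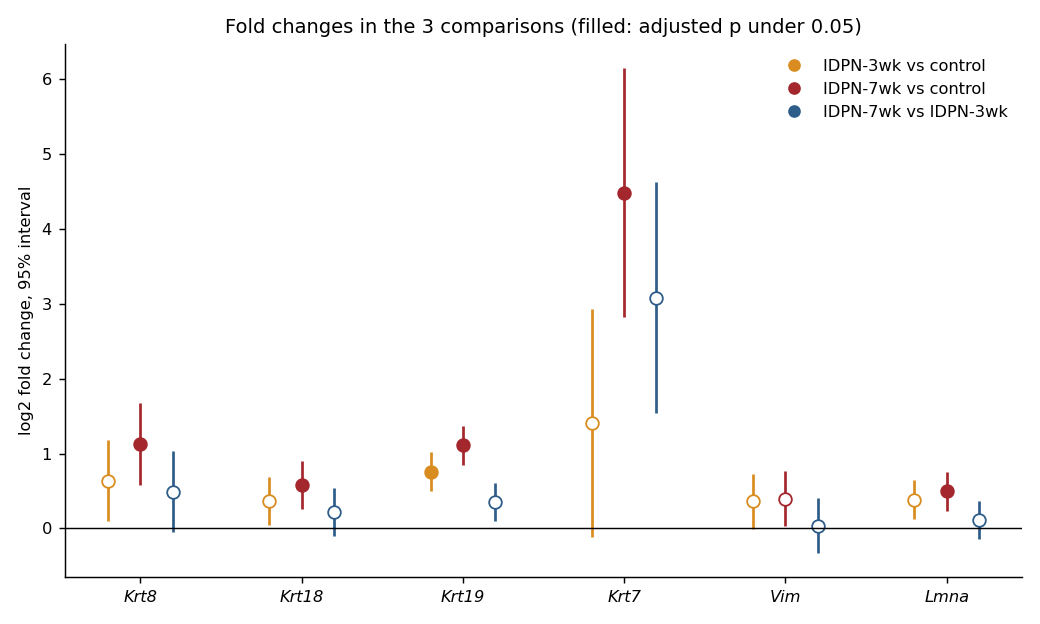
log2 fold change of each gene (y axis) with its 95% interval from the edgeR fit, for the 3 comparisons (colours) and 6 genes (x axis). Filled points had an adjusted p under 0.05. The keratins and Lmna have filled 7-week points, Vim has none, and no point of the comparison between treated groups is filled.

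Ratios of counts within a library compare the members with each other and do not depend on the scaling between libraries. The ratio of the type II keratins (Krt7 and Krt8) to the type I keratins (Krt18 and Krt19) was 0.489, 0.492 and 0.555 in control rats, 0.583, 0.544 and 0.474 in IDPN-3wk rats and 0.806, 0.555 and 0.525 in IDPN-7wk rats. The groups overlapped, and on the log2 scale they differed from control by 0.057 at 3 weeks (exact permutation test, two-sided p = 0.7, n = 3 per group) and by 0.27 at 7 weeks (exact two-sided p = 0.3). With 3 rats against 3, the smallest two-sided p of this test is 0.1. For Krt8 over Krt18 alone, the log2 ratio was higher by 0.28 at 3 weeks and by 0.50 at 7 weeks, with the smallest exact p of 0.1 at both times. The 7-week difference of the 4-keratin ratio was 0.079 without IDPN-7wk replicate 1.

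The ratio of Vim to the 4 keratins was 0.376, 0.503 and 0.315 in control rats, 0.256, 0.369 and 0.373 in IDPN-3wk rats and 0.151, 0.327 and 0.355 in IDPN-7wk rats. The lowest value was again that of IDPN-7wk replicate 1, and all groups overlapped. The log2 differences from control were -0.25 at 3 weeks (exact two-sided p = 0.4, n = 3 per group) and -0.59 at 7 weeks (exact two-sided p = 0.3), the latter -0.20 without that rat. At 3 weeks the difference was -0.069 without control replicate 2 and -0.074 without IDPN-3wk replicate 1.

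Lmna relative to the sum of the B-type lamins, Lmnb1 and Lmnb2, had ratios of 7.51, 10.6 and 10.7 in control rats, 11.5, 19.6 and 14.4 in IDPN-3wk rats and 14.3, 15.7 and 13.9 in IDPN-7wk rats. All treated rats were above all controls. The log2 ratio was higher than in controls by 0.65 at 3 weeks and by 0.63 at 7 weeks, each with the smallest p that the exact permutation test allows (two-sided p = 0.1, n = 3 per group). The B-type lamins themselves were not called, with log2 fold changes at 7 weeks of 0.31 for Lmnb1 (SE 0.470, edgeR adjusted p = 0.806) and -0.48 for Lmnb2 (SE 0.223, edgeR adjusted p = 0.277). At 3 weeks they were -0.59 for Lmnb1 (SE 0.474, edgeR adjusted p = 0.603) and -0.11 for Lmnb2 (SE 0.223, edgeR adjusted p = 0.865). The ratios thus carry the values of these genes as well as those of Lmna. Between the treated groups the log2 ratio differed by -0.019 (exact two-sided p = 0.8), which turned to 0.47 with Lmnb2 alone as the reference.

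**Figure D3:**
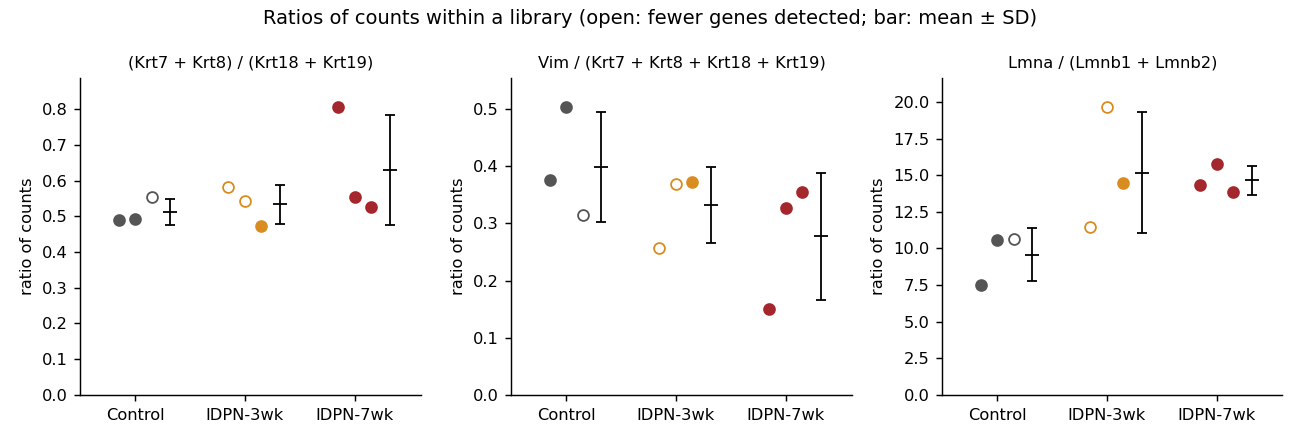
Ratios of counts within each library (y axes, linear from 0) for type II over type I keratins, Vim over the 4 keratins and Lmna over the B-type lamins, by group. Points are rats, open points mark the libraries with fewer detected genes, and bars give mean ± SD (n = 3). Control and treated groups are separate for the lamin ratio only.

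Beside the members, the table held 43 other keratins, of which 17 passed the filter on low counts. The other 26 had at most 1.91 CPM in any library. Keratins with similar sequences can share reads, which RSEM divides between genes, so the levels of single keratins are uncertain to that extent. Among the 17, 1 was a DEG at 3 weeks and 5 at 7 weeks, all higher in IDPN rats, and none between the treated groups by edgeR. At an unadjusted p under 0.05 there were 2, 6 and 6 of the 17 in the 3 comparisons. Such p-values were common among all genes, as the ranks of Vim and Krt8 above show. DESeq2 called 3 between the treated groups (Krt15, Krt17 and Krt80) and added Krt71, a hair follicle keratin with a negative log2 fold change, at 3 weeks (-1.22 by edgeR, adjusted p = 0.175) and at 7 weeks (-1.10 by edgeR, adjusted p = 0.159). The median log2 fold change of the 17 was 0.65 at 3 weeks, 0.053 at 7 weeks and 0.17 between the treated groups. Because genes that are high in 1 group only can pass the filter through that group, these counts and medians are descriptions.

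Krt15, a type I keratin of basal cells in stratified epithelia, was at 5.61, 4.82 and 3.43 CPM in control rats, 14.5, 29.1 and 28.6 CPM in IDPN-3wk rats and 53.1, 55.4 and 93.6 CPM in IDPN-7wk rats. The 3 groups did not overlap. Its log2 fold change was 2.38 at 3 weeks (SE 0.336, edgeR adjusted p = 0.00884) and 3.86 at 7 weeks (SE 0.354, edgeR adjusted p = 0.00026), and the 3-week call was lost without control replicate 2 (edgeR adjusted p = 0.05005). Between the treated groups edgeR called it only among genes with at least 10 counts in every library (adjusted p = 0.0472) and with the covariate for the shared identifier part (adjusted p = 0.0362). Its highest level was in IDPN-7wk replicate 3, not in replicate 1.

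Krt80, a type II keratin, was at 5.42, 6.55 and 8.05 CPM in control rats, 12.2, 7.54 and 11.6 CPM in IDPN-3wk rats and 45.6, 19.3 and 19.5 CPM in IDPN-7wk rats, with replicate 1 again the highest. It rose at 7 weeks (log2 fold change 2.08, SE 0.370, edgeR adjusted p = 0.00925), also without that replicate (log2 fold change 1.54, edgeR adjusted p = 0.0240). Krt23, a type I keratin, was called at 7 weeks with a log2 fold change of 1.07 (SE 0.274, edgeR adjusted p = 0.0478), from 15.0 to 31.6 CPM on average. This call was lost without any 1 of the control or IDPN-7wk rats, or IDPN-3wk replicate 3, with edgeR adjusted p of 0.0614 to 0.204, and with a covariate for the libraries with fewer detected genes (0.0897) or for the shared identifier part (0.0746).

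Krt13 and Krt17, type I keratins known from stratified epithelia, stayed at low levels. Krt13 was between 0.431 and 0.844 CPM in control rats, between 0.943 and 1.38 CPM at 3 weeks and between 2.81 and 3.82 CPM at 7 weeks (log2 fold change 2.51, SE 0.580, edgeR adjusted p = 0.0312). The Krt13 call was lost without control replicate 1 or 2 and without any 1 of the IDPN-7wk rats (edgeR adjusted p of 0.0937 to 0.136), and with the covariate for the shared identifier part (0.0551). Krt17 had 0 counts in all 3 control rats, 0, 0 and 3 counts in IDPN-3wk rats and 199, 141 and 80 counts in IDPN-7wk rats. Against a floor of 3 counts per control library, its mean level at 7 weeks was at least 34.6-fold higher. Krt17 passed the filter on low counts only through the IDPN-7wk rats. Its edgeR call at 7 weeks (adjusted p = 0.0151) and the settings below are therefore descriptions and no support for a difference. The Krt17 call was lost without control replicate 1 (edgeR adjusted p = 0.0509), IDPN-7wk replicate 1 (0.0743) or IDPN-7wk replicate 2 (0.0539). Between the treated groups edgeR called Krt17 only without IDPN-3wk replicate 3 (adjusted p = 0.0394).

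**Figure D4:**
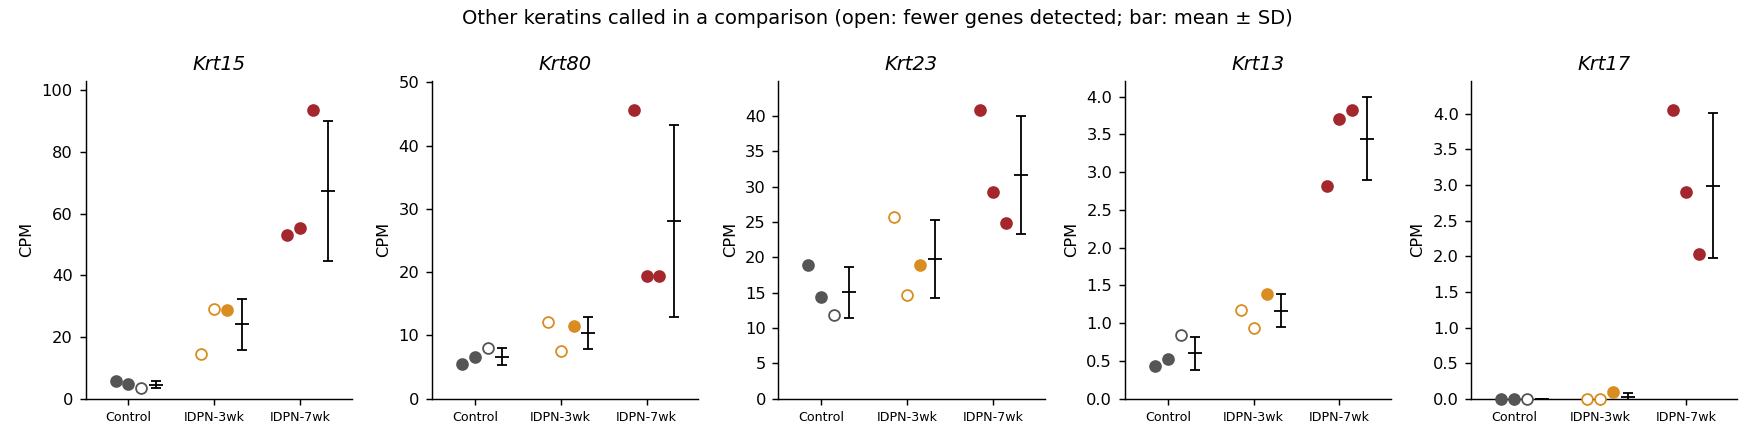
CPM (y axes, linear from 0) of the 5 other keratins called in a comparison, by group, with 1 point per rat, open points for libraries with fewer detected genes and bars for mean ± SD (n = 3). All IDPN-7wk rats are above all controls in each panel, and Krt17 is at 0 in the controls.

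Genes of the other filaments and of the proteins that hold filaments in place were not called by edgeR. Of the 15517 genes tested, 256 were DEGs at 3 weeks, 796 at 7 weeks and 75 between the treated groups. At such shares, 0 calls in lists this short do not set these genes apart from all genes. Of the 13 other intermediate filament genes tested (neurofilaments, desmin, nestin, B-type lamins and others), none was a DEG in any comparison, with median log2 fold changes of 0.11, 0.16 and -0.25 at 3 weeks, at 7 weeks and between the treated groups. The highest of them, Nes, the nestin gene of progenitor and glial cells, was at 41.3 ± 7.68, 50.2 ± 2.06 and 40.3 ± 9.19 CPM in control, IDPN-3wk and IDPN-7wk rats (SD, n = 3). Nefl, the light neurofilament chain of axons, was at 38.2 ± 5.0, 33.3 ± 4.16 and 33.2 ± 3.43 CPM. An unadjusted p under 0.05 was found for 3 of the 13 at 3 weeks, 2 at 7 weeks and 2 between the treated groups, and DESeq2 called 3 (Bfsp1, Nefh and Nefm), 1 (Des) and 0. Over all genes DESeq2 called 743, 1317 and 524, and unadjusted p-values of this size were common, as the ranks given for Vim and Krt8 show.

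Of 15 genes tested (of 17 listed) for filament anchors and desmosomes, the junctions to which keratins attach, none was a DEG either (median log2 fold changes 0.19, 0.28 and 0.085). Jup, plakoglobin of desmosomes and adherens junctions, was at 571 ± 6.37 CPM in control rats and 702 ± 65.3 CPM at 7 weeks (log2 fold change 0.30, SE 0.0932, edgeR adjusted p = 0.10), with all treated rats above all controls. Plec, the plectin gene, whose protein links filaments to each other and to membranes, differed from control by 0.10 in log2 fold change at 7 weeks (SE 0.101, edgeR adjusted p = 0.699). Of 13 lamin partners and nuclear envelope genes tested (of 15 listed), none was a DEG (medians -0.052, 0.044 and 0.10). Sun2, which couples the nuclear lamina to the cytoskeleton, had log2 fold changes of 0.31 and 0.20 at the 2 times (edgeR adjusted p = 0.0859 and 0.197). Tmpo, the gene of lamina-associated polypeptides, had -0.052 and -0.14 (edgeR adjusted p = 0.843 and 0.459). An unadjusted p under 0.05 was found for 4 of the 15 anchor genes at each time and 0 between the treated groups, and DESeq2 called 1 (Pkp1), 1 (Dst) and 0. For the 13 lamin partners these counts were 1, 2 and 0, and DESeq2 called 0 in each comparison. Here too, unadjusted p-values of this size were common among all genes.

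Marker RNA of several cell types also differed between groups, higher for some lists and lower for others, and its part in the results was not tested. Summed over 8 general epithelial markers, the level was 1551 to 1776 CPM in control rats, 1810 to 1962 CPM at 3 weeks and 2134 to 2947 CPM at 7 weeks, where the highest value was that of replicate 1. At 3 weeks 1 of the 8 was a higher DEG (Cldn4), and at 7 weeks 3 were (Elf3, Cldn7 and Cldn4). Epcam and Cdh1, the most abundant of the list, had log2 fold changes of 0.45 (edgeR adjusted p = 0.133) and 0.47 (edgeR adjusted p = 0.0376) at 7 weeks, under the fold threshold. The sum of the 12 supporting cell markers was lower in treated rats, at 14482 to 15094 CPM in control rats, 8947 to 10956 CPM at 3 weeks and 6734 to 8779 CPM at 7 weeks. Of the 12, 1 was a lower DEG at 3 weeks and 3 at 7 weeks, and 1 had a positive log2 fold change at 7 weeks (Zpld1, 0.28, edgeR adjusted p = 0.376). Otogl fell at 3 weeks, Otog, Otogl and Gjb6 fell at 7 weeks, and Gjb6 fell between 3 and 7 weeks. Otog alone made up a large part of this sum, at 8473 ± 116 CPM in control rats and 3533 ± 989 CPM at 7 weeks (SD, n = 3). For the 12 HC markers the sums were 2885 to 3329, 1412 to 1794 and 1408 to 1630 CPM. At 3 weeks 4 of them were lower DEGs (Tmc1, Otof, Ptprq and Loxhd1). At 7 weeks these and Espn, Slc17a8, Pou4f3, Lhfpl5 and Cdh23 were, 9 in all. Among all 15517 genes tested, 188 were lower DEGs at 3 weeks, 485 at 7 weeks and 21 between the treated groups. In the same order, DESeq2 called 2, 4 and 1 of the supporting cell markers. For the HC markers it called 5, 10 and 2, and for the epithelial markers 2, 3 and 2.

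Among markers of cells that could carry Vim or Lmna, the macrophage sums were higher at 7 weeks, and the mesenchyme sums overlapped between groups. The 8 macrophage markers summed to 75.0 to 119.7 CPM in control rats, 64.7 to 155 CPM at 3 weeks and 217 to 274 CPM at 7 weeks. Csf1r was the most abundant, and C1qb and Cd14 were higher DEGs at 7 weeks. All 8 had a positive log2 fold change at 7 weeks (median 1.52), and DESeq2 called 5 (C1qb, C1qc, Ptprc, Cd14 and Aif1). The 8 mesenchyme markers, led by Pdgfra and Dcn, summed to 746 to 811, 721 to 962 and 689 to 858 CPM. Lum was a lower DEG at 7 weeks. A positive log2 fold change at 7 weeks was found for 3 of the 8, the largest for Col1a1 (1.11, edgeR adjusted p = 0.176). The 5 endothelium markers tested of 6 listed, led by Cldn5 and Kdr, summed to 286 to 312, 333 to 394 and 252 to 411 CPM. Cdh5 was a higher DEG at 7 weeks. Of the 5, 4 had a positive log2 fold change at 7 weeks, and Emcn had a negative one (-0.38, edgeR adjusted p = 0.354). The 5 tested of 6 listed markers of dark cells and melanocytes summed to 774 to 903, 494 to 613 and 241 to 446 CPM. Kcnq1 and Slc12a2 were lower DEGs at 7 weeks. Slc12a2 made up most of this sum, at 712 ± 51.4 CPM in control rats and 283 ± 92.8 CPM at 7 weeks (SD, n = 3). The melanocyte markers Mlana and Tyr had log2 fold changes of 0.25 and -0.17 at 7 weeks (edgeR adjusted p = 0.735 and 0.966). No marker tested in these lists was at 0 on average in any group. IDPN-7wk replicate 1 had the highest epithelial and macrophage sums of the 9 libraries and the lowest supporting cell, mesenchyme, endothelium and dark cell sums, beside its high keratins. Its Vim was the lowest of its group only, at 287 CPM, and lay above control replicates 1 and 3 (268 and 248 CPM).

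**Figure D5:**
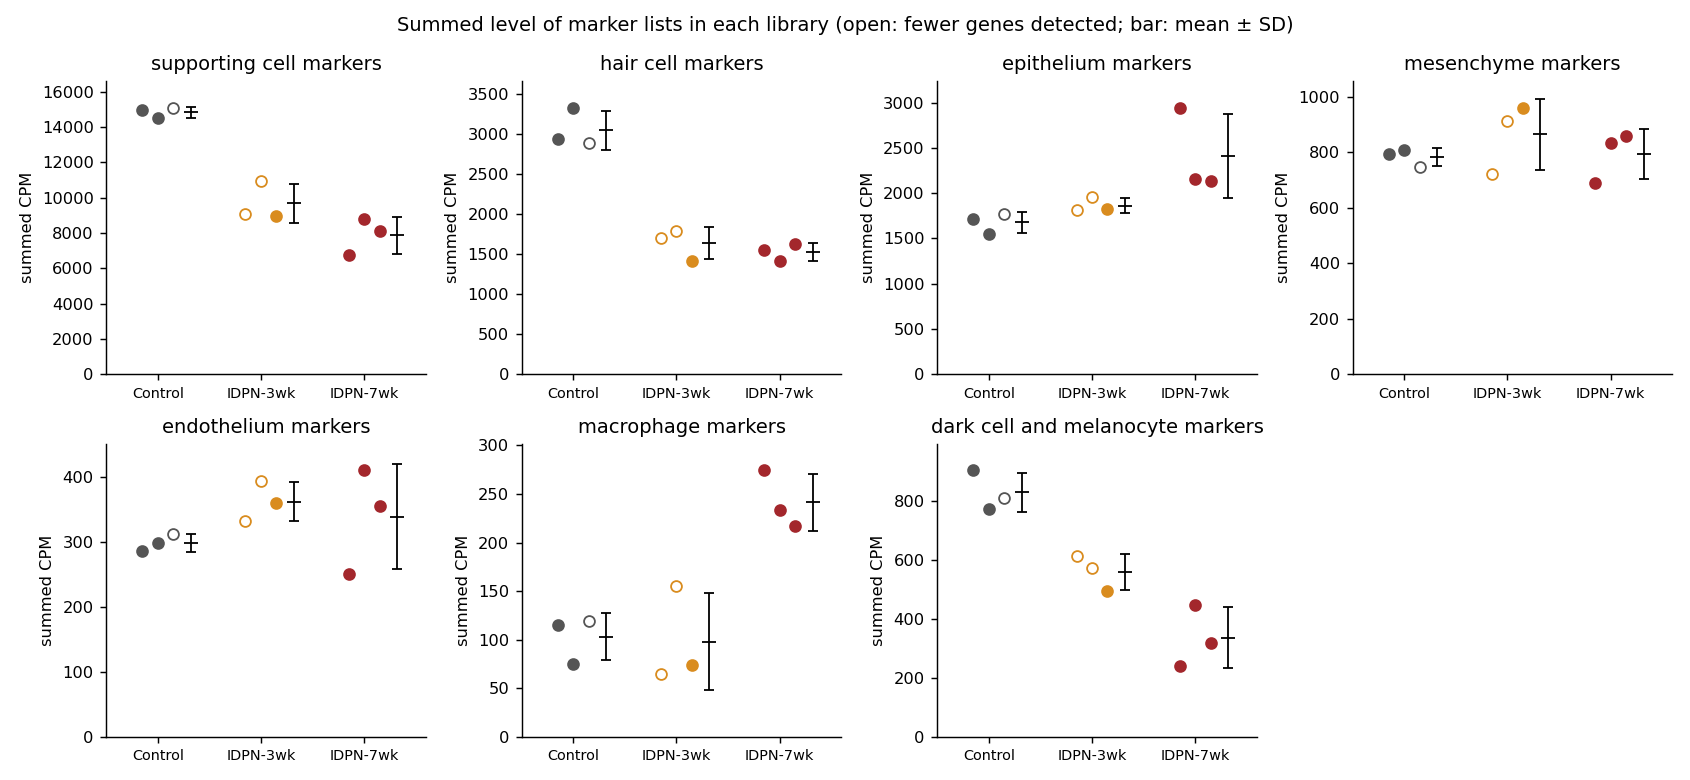
Summed CPM (y axes, linear from 0) of 7 lists of cell type markers by group. Points are rats, open points mark the libraries with fewer detected genes, and bars give mean ± SD (n = 3). Epithelial and macrophage sums are highest in the IDPN-7wk rats, and supporting cell, HC and dark cell sums are highest in control rats.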

How the data were processed

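RNA-seq counts of 9 libraries, made with the SMARTseq2 protocol (oligo-dT primed cDNA amplified by PCR), were analysed, with 3 rats per group. Per the labels and the methods of the study, the authors mapped reads with STAR 2.5.3a to Rnor6.0 with the Rnor6.0.92 annotation and quantified genes with RSEM (1.3.0 in the submitters' processing notes, another version in the paper). The values deposited by the authors are expected counts per gene from RSEM, in whole numbers and not normalized. How strand was set in counting is not given in the sources used here, so reads of genes overlapping in antisense cannot be told apart.

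The analysis used R 4.3.3 with edgeR 4.0.16 and limma 3.58.1. Genes passing filterByExpr (15517) were normalized by TMM and fitted in all 9 libraries with a mean per group (robust quasi-likelihood, 6 residual degrees of freedom, prior degrees of freedom with a median of 4.07). The thresholds, adjusted p under 0.05 and fold above 1.5, follow the study. Standard errors and 95% intervals were derived from the F statistic of each test. Each edgeR p-value sets a difference between groups against the spread between rats. That spread was estimated from 3 rats per group, over all 3 groups, and partly from other genes. The controls are shared by both comparisons with control. Ratios were tested by exact permutation. On simulated data with 15517 genes and the size of the 7-week comparison, edgeR recovered 40 of 100 genes changed 2-fold and 64 of 100 changed 4-fold, with 12 false calls. DESeq2 1.42.0, the main alternative, recovered 59 and 72, with 39 false calls.

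The members and lists were chosen with earlier results of these data known. Besides the members, the text names the DEGs and the 2 genes with the highest mean CPM of each list, and the 3 genes most correlated with each member. Genes that only DESeq2 called, and Lmnb1, Lmnb2, Zpld1, Col1a1, Emcn, Mlana and Tyr, were named after their values were seen. Replicate numbers were given here in accession order. Promoter windows came from RefSeq (GRCr8). Alternatives were DESeq2, RLE size factors, no filter or a stricter one (10 counts in each library), fits of 2 groups only, other fold thresholds, other genes in the ratios, each library left out, and the 3 libraries with fewer detected genes left out or marked by a covariate, and a covariate for 2 rats whose identifiers share their first part. One planned marker list is not reported here.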

Additional observations from a re-analysis of the deposited data

How the results depend on the processing

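The 18 log2 fold changes of the members (6 genes in 3 comparisons) were recomputed under 19 settings. Of these 342 values, 324 kept their direction and call, 7 lost a call, 6 gained one and 5 changed sign. All 5 sign changes were of Vim between IDPN-7wk and IDPN-3wk: -0.088 with a covariate for the 3 libraries with fewer detected genes, -0.053 in the 6 other libraries alone, and -0.072 to 0.19 with 1 library left out.

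The number of members called was 1 by DESeq2 between the treated groups (0 by edgeR), 5 at 7 weeks with no fold threshold, 0 at 3 weeks with a fold above 2, and 0 at 3 weeks in the 6 libraries with more detected genes. With 1 library left out it was 0 to 1 at 3 weeks, 2 to 4 at 7 weeks and 0 to 1 between the treated groups. The log2 ratio of Lmna to Lmnb2 alone differed by 0.47 between the treated groups. With 1 library left out, that of Lmna to both B-type lamins ranged from -0.20 to 0.18, that of Vim to the keratins between the treated groups from -0.56 to 0.054, and that of type II to type I keratins at 3 weeks from -0.0095 to 0.14. The cause of these changes was not tested.

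Over all genes, edgeR gave 256, 796 and 75 DEGs at 3 weeks, at 7 weeks and between the treated groups, and DESeq2 gave 743, 1317 and 524. In fits of only the groups compared there were 118, 1249 and 46, and with a fold above 2 there were 159 at 3 weeks and 480 at 7 weeks. Between the treated groups, 123 DEGs had at least 10 counts in every library and 37 were found with the covariate. The 6 libraries with more detected genes gave 1563 at 7 weeks. With 1 library left out the ranges were 75 to 439, 432 to 969 and 39 to 445.

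The 3 libraries with fewer detected genes were defined from the data, and the fit without them and the covariate for the shared identifier part were chosen after seeing the data. The 6-library fit holds 1 IDPN-3wk sample, which is assumed to vary like the others. Krt17 could not be fitted with at least 10 counts in every library. Each library came from a different rat, so no analysis was paired. The depth limits levels below 0.0611 to 0.101 CPM.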
